A study of Mus musculus with 6 samples.

Results

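The transcripts described here are those of 10 genes that release calcium from the endoplasmic reticulum, refill it from outside the cell, or set the ion flow that goes with this entry. They are Orai1, Orai2, Stim1, Stim2, Itpr1, Itpr2, Itpr3, Kcnn4, Trpm4 and Trpm7, taken by symbol from a deposited count table of 49568 genes. All 10 were present, all are protein-coding, and all passed the filter on low counts. MC/9, an established mouse mast cell line, was exposed to 10 nM rPTH for 24 h (3 libraries). It was compared with MC/9 labelled as control, with no treatment (3 libraries). rPTH, not spelled out in the labels, was taken to be parathyroid hormone. Per the design text, MC/9 cells had been placed on osteoblasts of the mouse line 7F2 the day after these were seeded, and the mast cells were collected for sequencing. Whether untreated mast cells also sat on osteoblasts is not stated.

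In mast cells, binding of antigen to IgE on the high-affinity receptor activates phospholipase C, which makes IP3. IP3 opens its receptors in the membrane of the endoplasmic reticulum and the stored calcium leaves. STIM proteins sense the emptied store and open ORAI channels of the plasma membrane, a route called store-operated calcium entry. The calcium that enters drives degranulation and, through calcineurin and NFAT, cytokine genes. Potassium leaving through the channel encoded by Kcnn4 keeps the membrane potential negative and so favours calcium entry. Sodium entering through TRPM4 has the opposite action on the membrane potential, and TRPM7 is a channel fused to a kinase that carries magnesium and calcium. Parathyroid hormone acts through a receptor coupled to cAMP and calcium. In other cell types cAMP acts on genes through CREB bound to the cAMP response element, abbreviated CRE.

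Since parathyroid hormone can raise cAMP, the promoter windows of the genes were read for this element. RefSeq windows on GRCm38.p6, from 250 bases before to 50 bases after the start, were found for 8 of the 10 genes: Orai1, Orai2, Stim1, Stim2, Itpr2, Itpr3, Kcnn4 and Trpm7. The full element TGACGTCA, read on both strands, was in 0 of these 8 windows and in 1.79% of all 32851 windows. Its core TGACG was in 4 of the 8, against 20.8% of all windows. The E-box CACGTG was in 4 of the 8, against 7.15% of all windows, and the GC box GGGCGG in 7 of the 8, against 35.7%. The NFAT core GGAAA was in 2 of the 8, against 61.3% of all windows, and the TATA box TATAAA in 0 of the 8, against 13.6%. The base composition of the windows differed too, with 59.7% to 78.7% G and C in the 8 windows and a median of 52.7% over all windows. The 4 windows with this core are printed 5′ to 3′ on the strand of the gene to show where it lies, with the core in capitals. They are chr5:123014824-123015123 for Orai1 (plus strand), chr5:136170607-136170906 for Orai2 (minus strand), chr7:102267569-102267868 for Stim1 (plus strand) and chr2:126876212-126876511 for Trpm7 (minus strand).
Orai1: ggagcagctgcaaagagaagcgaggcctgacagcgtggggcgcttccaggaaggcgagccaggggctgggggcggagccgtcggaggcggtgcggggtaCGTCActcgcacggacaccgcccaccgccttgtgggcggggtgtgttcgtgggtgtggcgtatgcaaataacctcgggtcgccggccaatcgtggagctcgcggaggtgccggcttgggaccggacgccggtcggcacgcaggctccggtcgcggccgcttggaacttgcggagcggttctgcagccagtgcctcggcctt
Orai2: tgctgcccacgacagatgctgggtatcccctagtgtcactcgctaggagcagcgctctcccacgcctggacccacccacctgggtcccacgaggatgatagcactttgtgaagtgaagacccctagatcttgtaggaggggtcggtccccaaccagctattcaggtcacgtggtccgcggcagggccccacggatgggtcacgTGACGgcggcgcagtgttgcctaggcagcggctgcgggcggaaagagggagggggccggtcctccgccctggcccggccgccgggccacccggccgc
Stim1: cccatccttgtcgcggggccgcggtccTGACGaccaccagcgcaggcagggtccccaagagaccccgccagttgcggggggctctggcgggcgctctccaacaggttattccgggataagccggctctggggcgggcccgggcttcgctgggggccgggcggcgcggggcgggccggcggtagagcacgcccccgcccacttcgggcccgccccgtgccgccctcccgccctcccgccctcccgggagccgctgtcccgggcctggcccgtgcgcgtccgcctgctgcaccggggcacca
Trpm7: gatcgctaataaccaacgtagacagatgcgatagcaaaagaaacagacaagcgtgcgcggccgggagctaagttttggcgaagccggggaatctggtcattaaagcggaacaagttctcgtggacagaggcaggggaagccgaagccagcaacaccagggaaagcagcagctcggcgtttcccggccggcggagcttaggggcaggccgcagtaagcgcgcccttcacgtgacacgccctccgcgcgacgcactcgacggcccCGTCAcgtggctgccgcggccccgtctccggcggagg

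Counted with the first transcribed base as 0, the leftmost base of the core was at position -151 in Orai1, -47 in Orai2, -223 in Stim1 and 13 in Trpm7. It shared bases with an E-box in Orai2 and Trpm7 and with none in Orai1 and Stim1. A match of letters is a description and does not show that a factor binds there.

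Total counts ran from 30623648 to 33577977 in the rPTH libraries and from 22282095 to 24993606 in the controls. A principal component analysis set control 1 apart first (53.1% of the variance) and then control 3 (31.1%). Control 3 had 31346 genes with a count above 0, against 25880 to 29229 in the other libraries. Values given without control 1 still include control 3. Mast cell markers summed to 10500 to 13500 CPM (counts scaled to a common library total) with rPTH and to 11100 to 13800 CPM in controls. Of 20 mast cell markers 17 were high enough to test, with 6 log2 fold changes above 0 (35.3%, against 41.5% of all tested genes) and 11 below. Of the 17, 1 was lower at an unadjusted p under 0.05, against 5.89% of all tested genes, and 0 passed the test. All rPTH libraries lay below all controls for 4 of the 17, against 8.46% of all tested genes. Of the 20, Fcer1a had 32783 to 56529 counts per library, while Mcpt4 and Mrgprb1 had at most 4 counts in any library. Osteoblast and stromal markers summed to 4620, 3030 and 3090 CPM in rPTH 1, 2 and 3, against 2060, 2360 and 2330 CPM in control 1, 2 and 3. Of 25 such markers tested, 23 had a log2 fold change above 0, 12 were higher at an unadjusted p under 0.05 and 0 passed the test. Of all tested genes 41.5% lay above 0 and 1.98% were higher at that level. Without control 1, 24 of the 25 lay above 0, with a median of 0.58, and 15 were higher at that level. Of all 17454 genes then tested 778 were, and again 0 markers passed. Col1a1 had 3197 to 9397 counts per library and Fn1 4806 to 32234, while Ibsp, a late osteoblast gene, had 0 or 1. The 10 macrophage markers summed to 6.16 to 7.12 CPM with rPTH and to 5.65 to 6.68 CPM in controls, and 4 of them were tested. Of these markers Cd68 had the most counts, 98 to 115 with rPTH and 63 to 89 in controls, while C1qa had 0 counts in every rPTH library and at most 1 in a control. In such bulk samples fewer cells of a type and less RNA per cell cannot be told apart. The part of stromal RNA in the levels of calcium channel transcripts was not tested.

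The question was whether any of these transcripts differed between rPTH and control. None of the 10 passed: 0 had an adjusted p under 0.05 in edgeR's quasi-likelihood test, as did 0% of the 16696 genes tested, higher or lower. At an unadjusted p under 0.05 the count was also 0 of the 10, against 7.87% of all tested genes (1.98% higher and 5.89% lower), and DESeq2 likewise gave 0 of 10 on both counts, where it called 5 genes of all tested and put 11% of them at an unadjusted p under 0.05. Of all genes at that level 331 were higher and 983 lower with TMM factors, 442 and 870 with DESeq2 size factors, and 514 and 673 with library totals. Of the 10 log2 fold changes, which are rPTH minus control throughout, 6 lay above 0 and 4 below, with a median of 0.12. Over all tested genes 41.5% lay above 0 and the median was -0.09, or 0.04 with library totals, where the median of the 10 was 0.21. The balance of signs turned with the controls used: without control 1 it was 3 above 0 and 7 below, with a median of -0.06, and with control 2 as the only control 2 lay above 0, with a median of -0.14. The 2 values farthest from 0 were those of Trpm7 (0.50) and Kcnn4 (-0.49). The 3 rPTH libraries did not overlap the 3 controls for 2 of the 10 genes, Kcnn4 and Trpm4, both below, where 16.8% of all genes did not overlap, 8.46% with rPTH below and 8.35% with rPTH above. Levels below are CPM scaled by TMM factors, which adjust library totals for a few dominant genes, with SD over 3 libraries, unless said otherwise.

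**Figure D1:**
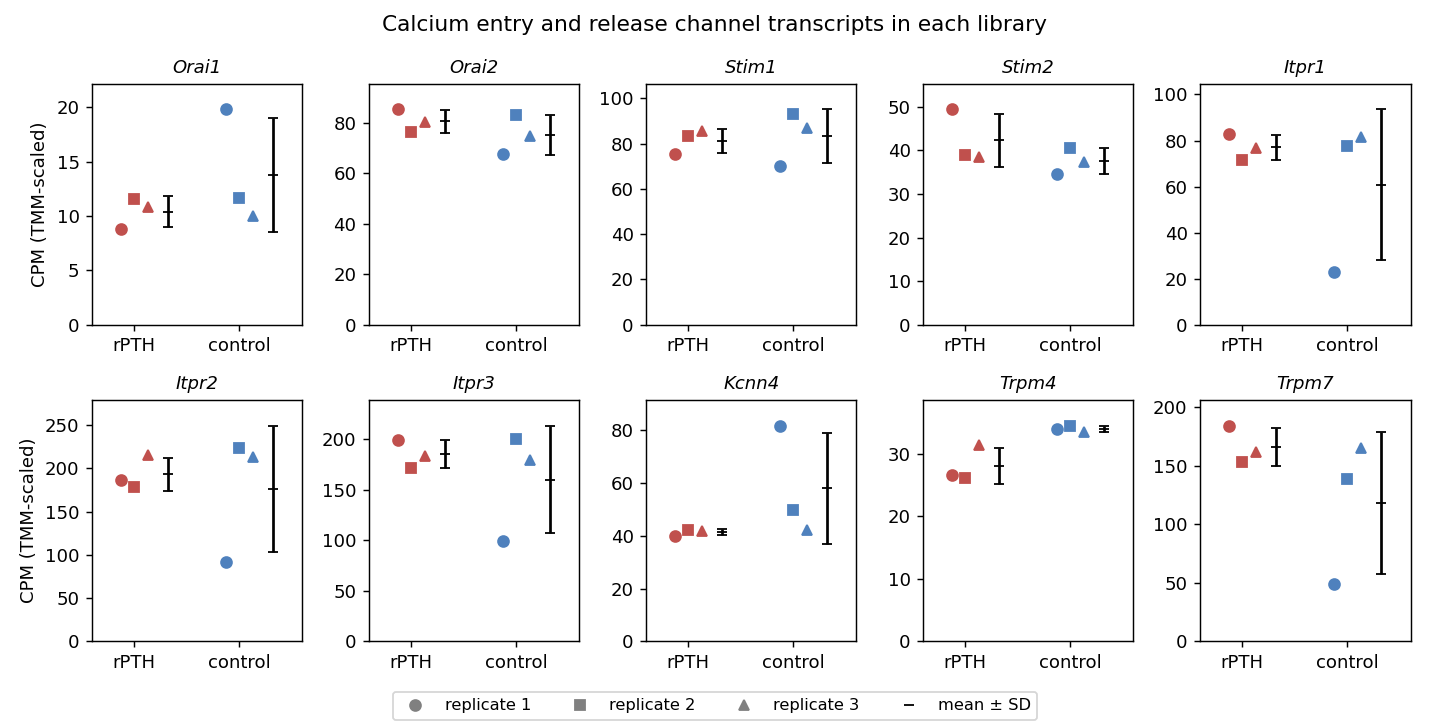
TMM-scaled CPM of each of the 10 genes in every library, rPTH in red on the left and control in blue on the right, with the marker shape giving the replicate and bars the mean ± SD (n = 3 each). Control 1 (blue circle) lies far below the other 5 libraries for Itpr1, Itpr2, Itpr3 and Trpm7 and far above them for Orai1 and Kcnn4.

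The pore-forming subunits of the store-operated channel come first. Orai1 (ENSMUSG00000049686.14, chromosome 5 from 123015074 to 123030456 in GENCODE M21 on GRCm38) encodes the main subunit of the channel in mast cells. It had 8.82, 11.6 and 10.8 CPM in rPTH 1, 2 and 3, against 19.8, 11.7 and 9.99 CPM in control 1, 2 and 3. The groups overlapped and control 1 was the only library above 11.7 CPM. The means were 10.4 ± 1.42 CPM with rPTH and 13.8 ± 5.25 CPM in controls (SD, n = 3 each), and the log2 difference was -0.41 ± 0.29 (SE; 95% interval -1.11 to 0.29; edgeR adjusted p = 0.635). Without control 1 the log2 fold change was -0.07 (95% interval -0.48 to 0.34).

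Orai2 (chromosome 5 from 136147459 to 136170713), whose product forms heteromeric channels with ORAI1 and limits their current in immune cells, had 85.4, 76.3 and 80.3 CPM in rPTH 1, 2 and 3. The controls had 67.6, 83.2 and 75 CPM. The groups overlapped, with control 1 lowest and rPTH 1 highest. Its log2 fold change was 0.10 ± 0.15 (SE; 95% interval -0.26 to 0.46; edgeR adjusted p = 0.788). Orai3, the remaining relative and not one of the 10, had 11.8 ± 1.04 CPM with rPTH and 15.0 ± 4.11 CPM in controls (SD, n = 3 each).

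The store sensors showed small differences. Stim1 (chromosome 7 from 102267806 to 102437319), the sensor that opens ORAI1 once the store is emptied, had 75.3, 83.3 and 85.4 CPM in rPTH 1, 2 and 3. It had 70.1, 92.9 and 86.8 CPM in control 1, 2 and 3. Control 1 was lowest and control 2 highest, so the rPTH libraries lay within the range of the controls. On the log2 scale the groups differed by -0.03 ± 0.17 (SE; 95% interval -0.43 to 0.36; edgeR adjusted p = 0.934). Its sign differed between scalings, and without control 1 it was -0.15 (95% interval -0.36 to 0.06), where all 3 rPTH libraries lay below both remaining controls with TMM factors but not with library totals or DESeq2 size factors.

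Stim2 (chromosome 5 from 53998499 to 54121057), a more sensitive sensor that answers small losses of stored calcium, had 49.4, 39.0 and 38.6 CPM in rPTH 1, 2 and 3, against 34.6, 40.6 and 37.3 CPM in control 1, 2 and 3. Only rPTH 1 lay above every control. The fitted difference was 0.18 ± 0.17 on the log2 scale (SE; 95% interval -0.22 to 0.57; edgeR adjusted p = 0.69). Without rPTH 1 it was 0.05. That library had the highest stromal marker sum, and the part of stromal RNA in this difference was not tested.

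The 3 IP3 receptors, the release channels of the endoplasmic reticulum, shared a pattern in which control 1 was far below all other libraries. Itpr1 (chromosome 6 from 108213096 to 108551109) had 82.7, 71.6 and 76.8 CPM in rPTH 1, 2 and 3, against 22.8, 77.8 and 81.4 CPM in control 1, 2 and 3. Control 1 thus held 29.2% of the mean of the other 5 libraries, while control 2 and 3 lay within the rPTH range. The log2 fold change was 0.34 ± 0.44 (SE; 95% interval -0.70 to 1.38; edgeR adjusted p = 0.749). Without control 1 the value was -0.06 (95% interval -0.26 to 0.14).

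Itpr2 (chromosome 6 from 146108299 to 146502223), the receptor form with the highest IP3 affinity, had 186, 179 and 215 CPM in rPTH 1, 2 and 3. The controls had 92.0, 223 and 213 CPM. Apart from control 1 the controls were near or above the upper end of the rPTH range. Its log2 fold change was 0.14 ± 0.33 (SE; 95% interval -0.66 to 0.93; edgeR adjusted p = 0.868) with all libraries and -0.18 without control 1 (95% interval -0.43 to 0.06).

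Itpr3 (chromosome 17 from 27057304 to 27122223) had 199, 172 and 183 CPM in rPTH 1, 2 and 3, against 99.3, 200 and 179 CPM in control 1, 2 and 3. The groups overlapped and control 1 was again lowest. Its log2 fold change was 0.21 ± 0.27 (SE; 95% interval -0.43 to 0.85; edgeR adjusted p = 0.753), and -0.05 without control 1 (95% interval -0.27 to 0.17). All 3 receptors therefore had a fold change above 0 with all libraries and below 0 without control 1, and in neither case did one pass the test.

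Among the channels that set the membrane potential, Kcnn4 (chromosome 7 from 24370263 to 24386690), a potassium channel opened by calcium, had 40.1, 42.2 and 42.0 CPM in rPTH 1, 2 and 3. The controls had 81.7, 50 and 42.4 CPM. The rPTH libraries lay close together and just below control 3, with control 1 far above. The means were 41.4 ± 1.11 CPM with rPTH and 58.0 ± 20.9 CPM in controls (SD, n = 3 each), and the log2 difference was -0.49 ± 0.26 (SE; 95% interval -1.10 to 0.13; edgeR adjusted p = 0.628). Without control 1 it was -0.17 (95% interval -0.39 to 0.06). In CPM of library totals, with no TMM factor, Kcnn4 had 41.3, 44.1 and 44.6 CPM in rPTH 1, 2 and 3, against 66.1, 51.6 and 44.0 CPM in control 1, 2 and 3, so that the groups overlapped.

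Trpm4 (chromosome 7 from 45302632 to 45333780), a cation channel opened by calcium that carries sodium, had 26.5, 26.1 and 31.4 CPM in rPTH 1, 2 and 3, against 33.9, 34.4 and 33.4 CPM in control 1, 2 and 3. The controls lay close together and all above the rPTH libraries. The means were 28.0 ± 2.94 CPM with rPTH and 33.9 ± 0.495 CPM in controls (SD, n = 3 each), and the log2 difference was -0.28 ± 0.15 (SE; 95% interval -0.64 to 0.08; edgeR adjusted p = 0.628). Without control 1 it was -0.29 (95% interval -0.56 to -0.02; unadjusted p = 0.041, edgeR adjusted p = 0.40). Once the trend of every library with gene length and GC content was taken out it was -0.42 (unadjusted p = 0.0391, edgeR adjusted p = 0.811). Of all tested genes, 12.4% had an unadjusted p under 0.05 without control 1 and 4.99% with these trends taken out. In CPM of library totals Trpm4 had 27.2, 27.3 and 33.3 CPM in rPTH 1, 2 and 3, against 27.5, 35.6 and 34.7 CPM in control 1, 2 and 3, and the groups overlapped. With library totals or DESeq2 size factors, a comparison of ranges chosen after seeing the data, 0 of the 10 genes had all 3 rPTH libraries beyond all 3 controls. Over all tested genes the rPTH libraries then lay below every control for 5.65% and above for 13.5% with library totals, and for 6.49% and 11.1% with DESeq2 size factors. Without control 1 Trpm4 lay below both remaining controls under all 3 scalings, as did 14.6% of tested genes with TMM factors, 12.2% with library totals and 11.7% with DESeq2 size factors.

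Trpm7 (chromosome 2 from 126791565 to 126876230) had 184, 153 and 162 CPM in rPTH 1, 2 and 3, against 49.0, 139 and 165 CPM in control 1, 2 and 3. Control 3 lay within the rPTH range and control 1 held 30.5% of the mean of the other 5 libraries. The means were 166 ± 15.9 CPM with rPTH and 118 ± 60.9 CPM in controls (SD, n = 3 each). The log2 fold change was 0.50 ± 0.41 (SE; 95% interval -0.48 to 1.48; edgeR adjusted p = 0.66). Without control 1 it was 0.12 (95% interval -0.15 to 0.38), and without control 3 it was 0.87.

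**Figure D2:**
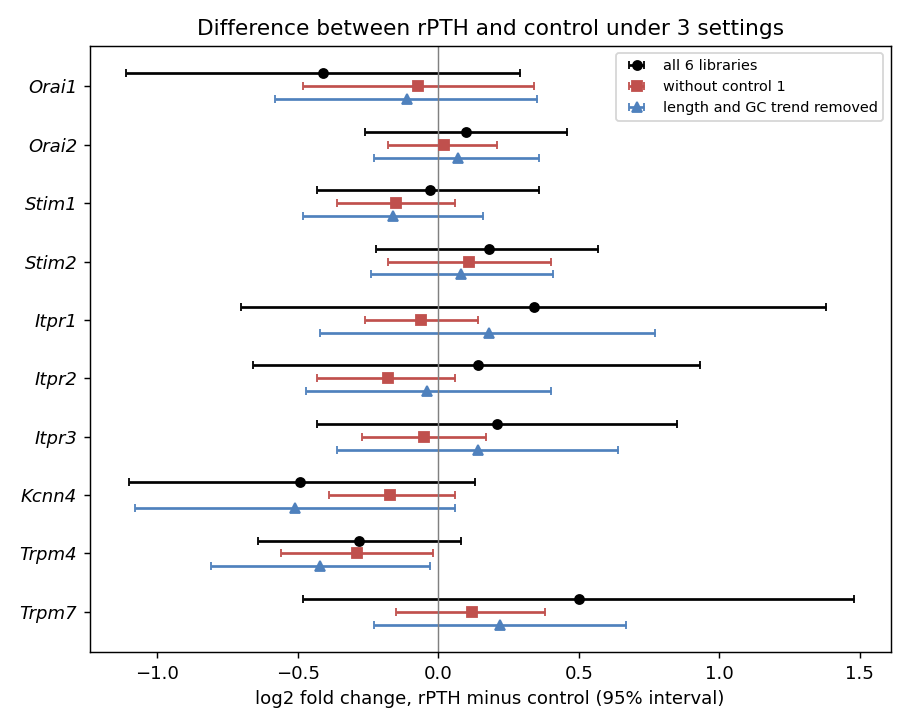
Log2 fold change of each gene, rPTH minus control, with its 95% interval from edgeR, with all 6 libraries (black circles), without control 1 (red squares) and with length and GC trends taken out (blue triangles). All 10 intervals with all libraries include 0, and that of Trpm4 lies below 0 in the other 2 settings. Of all tested genes, 12.4% had an unadjusted p under 0.05 without control 1 and 4.99% with the trends taken out.

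For several of these transcripts 1 library held much of the spread. Control 1 was the lowest library for 7 of the 10 genes and the highest for 2. Leaving it out, the highest library was 1.14 to 1.33 times the lowest for every one of the 10 genes, against 1.26 to 3.75 times with it. The ratio was the same with and without control 1 for Trpm4 (1.32), and close for Orai2 (1.14 without and 1.26 with control 1), Stim1 (1.23 and 1.33) and Stim2 (1.32 and 1.43). In plain CPM the 10 genes summed to 965, 894 and 982 in rPTH 1, 2 and 3, against 462, 984 and 959 in control 1, 2 and 3. The difference between control 1 and the mean of control 2 and 3 went with length: on the log2 scale it was 0.87 for Orai1, with 2.30 kb of annotated exon, and -1.80 for Itpr1, with 18.32 kb. The same held over protein-coding genes, with a median of 0.43 for the 3746 tested genes of 2 to 4 kb, -0.10 for the 4736 of 4 to 8 kb and -0.67 for the 2236 of over 8 kb. Kcnn4, with 5.12 kb, had 0.83, above the upper quartile of 0.33 in its length class. Trpm4, with 10.83 kb, had 0.00, above the upper quartile of -0.17 in its class, while Trpm7 (-1.63), Itpr1 and Itpr2 (-1.24) lay below the lower quartile of -1.15. Between the rPTH libraries and control 2 and 3, the medians of the same 3 length classes were 0.02, 0.02 and 0.03. With the length and GC trends taken out, the log2 fold change was -0.11 for Orai1, 0.22 for Trpm7, 0.18 for Itpr1, 0.14 for Itpr3 and -0.04 for Itpr2. It was 0.07 for Orai2, 0.08 for Stim2, -0.16 for Stim1 and -0.51 for Kcnn4, and as given for Trpm4. The part of RNA quality in these differences was not tested.

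**Figure D3:**
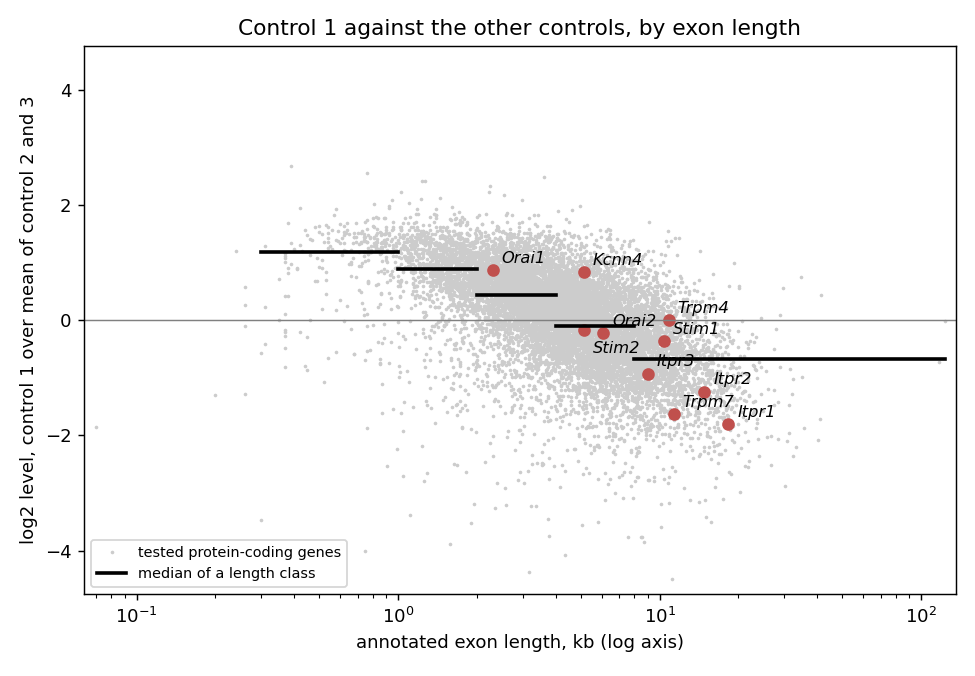
Log2 level in control 1 over the mean of control 2 and 3 against annotated exon length in kb (log axis) for tested protein-coding genes (grey) and the 10 channel and sensor genes (red). Black lines give the median of each length class and descend from 1.19 under 1 kb to -0.67 over 8 kb.

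Levels of different genes were compared per kb of annotated exon. Over the 5 libraries other than control 1, Itpr3 had the highest mean, with 20.7 CPM per kb. Trpm7 (14.2), Itpr2 (13.7) and Orai2 (13.2 CPM per kb) followed and overlapped each other. Kcnn4 (8.46), Stim1 (8.17) and Stim2 (7.99 CPM per kb) came next with overlapping ranges, then Orai1 (4.60) and Itpr1 (4.26 CPM per kb), and last Trpm4 with 2.80 CPM per kb. The ranges of neighbours in this order did not overlap between these 5 steps. With control 1 included, the range of every gene overlapped that of the next. Over all 6 libraries the order by exon length was Itpr3 (19.1), Orai2 (12.8), Trpm7 (12.6), Itpr2 (12.5), Kcnn4 (9.72), Stim1 (7.93), Stim2 (7.78), Orai1 (5.28), Itpr1 (3.76) and Trpm4 (2.86 CPM per kb). Over the same 6 libraries, but per kb of the longest annotated transcript, the highest were Trpm7 (20.0), Orai2 (19.5), Itpr3 (19.1) and Stim1 (18.9 CPM per kb) and the lowest Orai1 (6.46 CPM per kb). By that length Stim1 was above Stim2 (8.09 CPM per kb), while by exon length both were close.

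Shares within a family do not depend on how libraries are scaled, but their size depends on the gene length used, here annotated exon. Of these shares 6 were tested by exact permutation (two-sided), where 3 libraries against 3 give no p under 0.1. Orai1 made up 16.3%, 21.4% and 20.6% of the counts per kb of Orai1, Orai2 and Orai3 in rPTH 1, 2 and 3. It made up 30%, 20.0% and 19.8% in control 1, 2 and 3 (exact permutation p = 0.6; adjusted over the 6 shares 0.84). Orai2 held the largest share in every library, 53.4% to 59.8% with rPTH and 38.6% to 56.3% in controls. Stim1 made up 43.0%, 51.4% and 52.3% of Stim1 and Stim2 in rPTH 1, 2 and 3. It made up 50.1%, 53.1% and 53.5% in controls (exact permutation p = 0.5; adjusted 0.84), so that rPTH 1 alone stood apart. Near-equal shares rest on exon length: per kb of the longest transcript Stim1 had 18.9 and Stim2 8.09 CPM per kb over all 6 libraries.

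Among the IP3 receptors Itpr3 made up 54.2% ± 2.16 with rPTH and 54.8% ± 4.30 in controls, and Itpr2 34.6% ± 2.55 with rPTH and 35.7% ± 1.84 in controls (SD, n = 3 each; exact permutation p = 0.9 and 0.7). Itpr1 made up 11.5%, 11.2% and 10.8% in rPTH 1, 2 and 3, against 6.74%, 10.2% and 11.5% in control 1, 2 and 3 (exact permutation p = 0.3). In every library the order was Itpr3, Itpr2, Itpr1. Trpm7 made up 86.9%, 84.9% and 83.1% of Trpm4 and Trpm7 in rPTH 1, 2 and 3, against 58.0%, 79.5% and 82.5% in control 1, 2 and 3. The groups did not overlap, with a difference of 11.6 percentage points (exact permutation p = 0.1, the smallest possible; adjusted over the 6 shares 0.6). Without control 1 the difference was 3.98 points, so this size rests largely on that library.

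**Figure D4:**
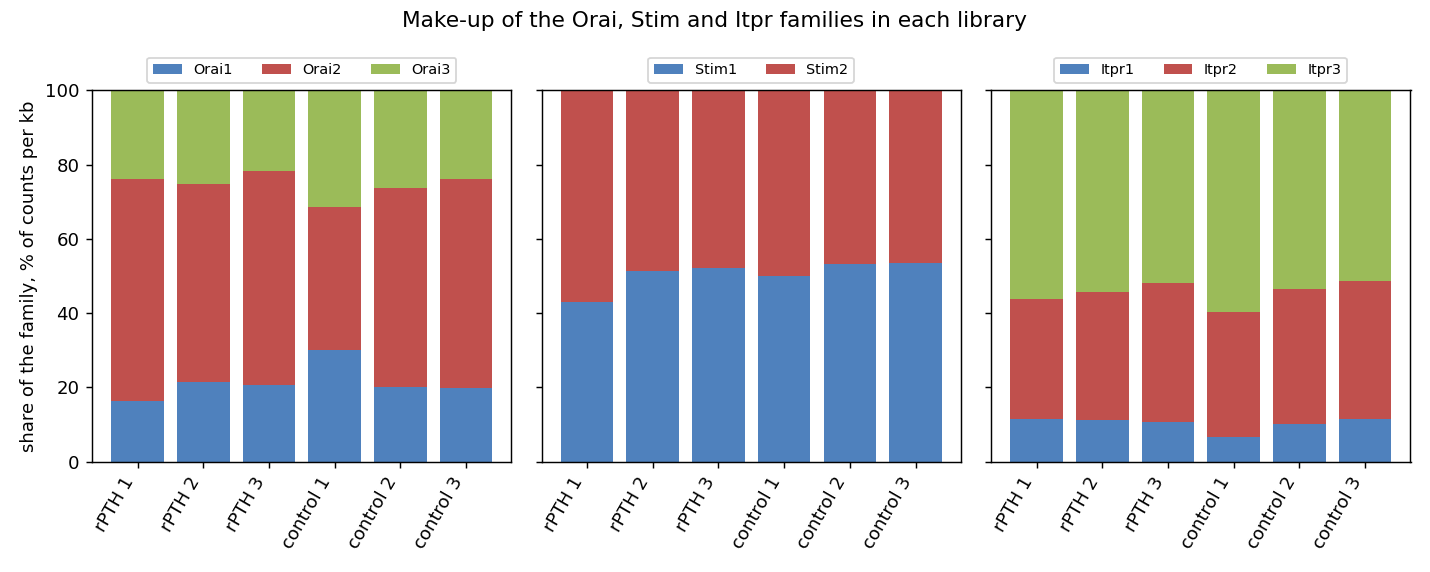
Share of each gene in the counts per kb of annotated exon of its family for Orai1 to Orai3, Stim1 with Stim2, and Itpr1 to Itpr3. There is 1 bar per library with rPTH on the left. Orai2 and Itpr3 are the largest part of their families in all 6 libraries, and Orai1 is 30% in control 1 against 16.3% to 21.4% elsewhere.

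The reads of some of these genes could hold those of other genes. Of the genes that overlap the exons of Orai1, Itpr1 and Itpr3 in GENCODE M21 on the other strand, Gm2479 had at most 1 count per library, Gm44040 at most 3, Gm44101 at most 1 and Itpr3os at most 3. Orai1, by contrast, had 231 to 399 counts per library, the fewest of the 10. The pseudogene Gm15720 lies within Itpr2 on the same strand, with no exon in common, and had 85 to 373 counts per library, against 1816 to 7661 for Itpr2. The miRNA gene Mir7677 shares exon bases with Itpr3 on the same strand.

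For each gene, the most similar of 148 genes was named, from the tested pathway genes and the 10 themselves, by the root mean square difference between log2 profiles over the 6 libraries, each centred on its own mean. Stim1 was nearest to Slc24a3 (0.01), Orai2 to Camkk2 (0.03), Orai1 and Kcnn4 both to Calm3 (0.05 and 0.06), and Stim2 to Cnnm4 (0.08). Itpr2 was nearest to Dyrk2 (0.08), Itpr3 to Gsk3b (0.08), Trpm4 to Esyt1 (0.09), Itpr1 to Piezo1 (0.10) and Trpm7 to Itpr1 (0.10). Within the 10, Orai2 and Stim2 were nearest to each other (0.09), as were Orai1 and Kcnn4 (0.10), Itpr1 and Trpm7 (0.10) and Itpr2 and Itpr3 (0.14). These likenesses are over 6 libraries of which control 1 differs most.

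The wider pathway was read from 8 lists with 150 tested genes, of which 0 passed the test in either direction in edgeR. DESeq2 also called 0, with 8 at an unadjusted p under 0.05, where it put 11% of all tested genes. At an unadjusted p under 0.05 there were 5 higher and 0 lower with rPTH (all 5 are named with their lists), where 7.87% of all tested genes lay under that level. Leaving out 1 library, the pathway count ran from 0 without rPTH 1 (1.61% of all tested genes) to 11 without control 1 (12.4%). The median log2 fold change was 0.02 over the 150, against -0.09 over all tested genes. Without control 1, 8 were higher and 3 lower at that level, of 155 tested, against 778 higher and 1387 lower of all 17454 genes tested (12.4%), and again 0 passed. Over all tested genes 41.5% lay above 0 with all libraries, to be read beside the tallies of each list.

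Of the partners and regulators of the store-operated channel 18 were tested, with 7 above 0, 11 below and a median of -0.13. Without control 1 it was 10 above, 8 below and 0.01. Cracr2b, a relative of the channel regulator CRACR2A, had 6.08 ± 0.356 CPM with rPTH and 9.40 ± 3.89 CPM in controls (SD, n = 3 each), and Saraf, which switches STIM1 off, 115 ± 10.5 CPM with rPTH and 146 ± 41.8 CPM in controls. Both were highest in control 1. Esyt1, a tether between the endoplasmic reticulum and the plasma membrane, had 354 ± 36.4 CPM with rPTH and 433 ± 22.1 CPM in controls. Its rPTH libraries (312, 372 and 378 CPM) all lay below the controls (442, 449 and 408 CPM), and its log2 fold change was -0.29 ± 0.18 (SE) with all libraries and -0.28 without control 1. Sept7, a septin that organises the membrane at contact sites, had 223 ± 12.9 CPM with rPTH and 176 ± 32.7 CPM in controls.

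Of the enzymes that make or remove IP3 21 were tested, with 14 above 0, 7 below and a median of 0.12. Leaving out control 1 turned this to 8 above, 13 below and -0.06. The phospholipase C genes Plcb1 and Plcb4 had the smallest p. Plcb1 had 12.7, 7.39 and 8.52 CPM in rPTH 1, 2 and 3, against 2.08, 6.54 and 5.10 CPM in control 1, 2 and 3 (log2 fold change 1.05 ± 0.44, SE; unadjusted p = 0.0478, edgeR adjusted p = 0.619). Plcb4 had 7.78, 5.65 and 4.82 CPM with rPTH, against 2.08, 3.83 and 3.89 CPM in controls (0.89 ± 0.34, SE; unadjusted p = 0.0331, edgeR adjusted p = 0.619). Both were highest in rPTH 1, where the stromal marker sum was highest. Orai2, Stim2, Itpr1 and Trpm7 were highest in that library too, and the part of stromal RNA was not tested. Without control 1 their log2 fold changes were 0.70 and 0.64. Plcl2, a catalytically inactive relative, had 27.9 ± 0.514 CPM with rPTH and 34.1 ± 6.33 CPM in controls, and Plce1 1.01 ± 0.472 CPM with rPTH and 0.675 ± 0.159 CPM in controls (SD, n = 3 each).

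Of the partners of the IP3 receptors 20 were tested, with 8 above 0, 12 below and a median of -0.05, and without control 1 there were 12 above, 9 below and a median of 0.02. Ahcyl1, which binds the receptor and competes with IP3, had 178 ± 12.8 CPM with rPTH and 143 ± 18.3 CPM in controls (SD, n = 3 each), and Becn1, the autophagy protein beclin, 63.5 ± 2.60 CPM with rPTH and 74.5 ± 7.52 CPM in controls. Erlin2, part of the complex that degrades activated receptors, had 49.1 ± 3.45 CPM with rPTH and 41.9 ± 8.45 CPM in controls. Lrmp had 83.0 ± 13.9 CPM with rPTH and 95.5 ± 8.31 CPM in controls.

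Of the pumps and exchangers 12 were tested, with 6 above 0, 6 below and a median of 0.09, and without control 1 there were 8 above, 5 below and a median of 0.05. The plasma membrane pump Atp2b1 had 94.2, 70.6 and 72.9 CPM in rPTH 1, 2 and 3, against 30, 63.5 and 63.6 CPM in control 1, 2 and 3. Its groups did not overlap, with control 1 far below, and its log2 fold change was 0.60 ± 0.31 (SE; edgeR adjusted p = 0.628) with all libraries and 0.30 without control 1. The related pump Atp2b4 had 1.1 ± 0.316 CPM with rPTH and 0.683 ± 0.160 CPM in controls (SD, n = 3 each), and the Golgi pump Atp2c1 57.3 ± 1.73 CPM with rPTH and 45.4 ± 13.5 CPM in controls. Slc8b1, the mitochondrial sodium and calcium exchanger, had 9.92 ± 1.48 CPM with rPTH and 12.5 ± 2.06 CPM in controls.

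Of the genes of mitochondrial calcium uptake 14 were tested, with 4 above 0, 10 below and a median of -0.10. With control 1 left out this turned to 9 above, 5 below and 0.02. Of the 14, 3 were then higher at an unadjusted p under 0.05 and 0 lower, where 778 of all 17454 tested genes were higher and 1387 lower. These 3 are part of the 8 higher, of 155 tested, over all lists, and 0 passed the test. Micu3, a regulator of the uniporter, had 7.93, 6.44 and 6.81 CPM in rPTH 1, 2 and 3, against 4.91, 4.69 and 4.89 CPM in control 1, 2 and 3. The controls lay close together and all rPTH libraries above them, with a log2 fold change of 0.55 ± 0.21 (SE; unadjusted p = 0.0334, edgeR adjusted p = 0.619), and 0.55 without control 1. Smdt1, an essential small subunit of the uniporter, had 68.7 ± 3.96 CPM with rPTH and 112 ± 61.3 CPM in controls (SD, n = 3 each), with 182 CPM in control 1. Ppif, the cyclophilin of the permeability pore, had 44.8 ± 2 CPM with rPTH and 54.2 ± 10.7 CPM in controls, and the outer membrane channel Vdac2 188 ± 8.63 CPM with rPTH and 213 ± 53.1 CPM in controls.

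Of the calcineurin and NFAT genes 23 were tested, with 19 above 0, 4 below and a median of 0.16. None had an unadjusted p under 0.05, and without control 1 there were 13 above 0, 10 below and a median of 0.01. Nfat5, the tonicity-regulated member, had 231, 161 and 200 CPM in rPTH 1, 2 and 3, against 45.4, 160 and 175 CPM in control 1, 2 and 3. The calcineurin chains Ppp3cb and Ppp3r1 had 70.0 ± 2.62 and 71.6 ± 4.58 CPM with rPTH, against 56.5 ± 12.7 and 61.9 ± 9.33 CPM in controls (SD, n = 3 each). Camk2d, a calmodulin-dependent kinase chain, had 18.7 ± 6.13 CPM with rPTH and 13.4 ± 1.69 CPM in controls.

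Of the other TRP and calcium entry channels 17 of 37 were high enough to test, with 6 above 0, 11 below and a median of -0.09, and without control 1 there were 10 above, 10 below and a median of -0.01. Cacna1c, the pore of a voltage-gated calcium channel, had 22.3, 13.2 and 15.3 CPM in rPTH 1, 2 and 3, against 5.93, 11.1 and 11.4 CPM in control 1, 2 and 3 (log2 fold change 0.84 ± 0.32, SE; unadjusted p = 0.0368, edgeR adjusted p = 0.619). It was highest in rPTH 1 and lowest in control 1, and without control 1 the value was 0.58. Pkd2, a polycystin channel, had 56.9 ± 12.3 CPM with rPTH and 39.1 ± 14.6 CPM in controls, and the channel subunit Cacnb2 6.11 ± 1.52 CPM with rPTH and 4.36 ± 1.13 CPM in controls (SD, n = 3 each). P2rx1, a channel opened by ATP, had 55.8 ± 7.88 CPM with rPTH and 67.2 ± 11.5 CPM in controls.

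Of the potassium, chloride and magnesium transport genes 25 were tested, with 15 above 0, 10 below and a median of 0.12. This balance was not kept without control 1, where 12 lay above, 13 below and the median was -0.03. Slc12a2, a sodium, potassium and chloride cotransporter, had 22, 14.2 and 13.6 CPM in rPTH 1, 2 and 3, against 8.41, 11.9 and 11.6 CPM in control 1, 2 and 3 (log2 fold change 0.64 ± 0.26, SE; unadjusted p = 0.0452, edgeR adjusted p = 0.619). It was highest in rPTH 1, and without control 1 the value was 0.48 (unadjusted p = 0.0684). Pik3c2b, a lipid kinase needed for the activity of the potassium channel of Kcnn4 in T cells, had 2.94 ± 0.623 CPM with rPTH and 1.89 ± 0.296 CPM in controls (SD, n = 3 each). The inward rectifier Kcnj2 had 4.16 ± 1.53 CPM with rPTH and 2.35 ± 0.594 CPM in controls, and the scramblase Ano6 103 ± 16.3 CPM with rPTH and 76.3 ± 13.8 CPM in controls.

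In the authors' deposited table the log2 fold changes of the 10 genes lay between -0.35 for Kcnn4 and 0.43 for Trpm7. Adjusted p-values in the authors' deposited table were 0.661 to 0.95, so none of the 10 passed there either. The value for Stim1 in the authors' deposited table was 0.04, of the other sign than the -0.03 found here.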

How the data were processed

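RNA of MC/9 mast cells was measured by sequencing in 3 rPTH and 3 control libraries. The authors deposited whole-number counts per gene, with no normalization. Per the submitters' processing notes, R 3.3.0 and DESeq2 1.12.4 were used, as were STAR 2.5.2b, Trimmomatic 0.36 and featureCounts (Subread 1.5.0p3), and the builds named are mm9 and GRCm38.p5. Annotation, strand setting and the role of each build are not given in the sources used here. Log2 fold changes, p-values and adjusted p-values of the comparison were read from a table the authors deposited, per the file headers. The authors' normalized and regularised log2 tables were not used.

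Counts were tested over 16696 genes left by filterByExpr (minimum count 10) with edgeR 4.0.16, quasi-likelihood with robust fitting, TMM factors and Benjamini-Hochberg adjustment at 0.05, in R 4.3.3. The fit was tested on simulated data in which all genes had the same dispersion and no library stood apart, unlike control 1 here. DESeq2 1.42.0 was an alternative. Intervals are 95% intervals of the fit. Lengths come from GENCODE M21 on GRCm38, whose annotation may differ from the one used for counting, and GC content from its longest transcripts. The length and GC trend was removed as an offset from splines with 4 degrees of freedom. No 2 libraries were duplicates (chi-square per degree of freedom 7.57 to 154). The labels name no separate cultures, so p-values cover just the spread of these libraries, possibly technical. All 10 genes are named, and of each pathway list the 4 tested genes of smallest p. The genes and lists were chosen with earlier results of these data known. Reads of near-identical copies and overlapping genes cannot be told apart in the counts.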

Additional observations from a re-analysis of the deposited data

How the results depend on the processing

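No setting gave any of the 10 genes or any tested pathway gene an adjusted p under 0.05. Over all genes the count was 0 with edgeR except with control 2 as the only control (2 genes). It was 5 with DESeq2 and 8 with DESeq2 on all genes of the table, the last chosen after seeing the data. Leaving out 1 library gave 0 each time. The direction held in all alternatives for Orai1, Stim2, Kcnn4, Trpm4 and Trpm7. The log2 fold change of Stim1 was 0.02 with DESeq2 size factors and with DESeq2, 0.04 with DESeq2 on all genes, 0.07 with library totals and 0.08 without the filter. Leaving out 1 library it ran from -0.15 to 0.08, that of Itpr1 from -0.06 to 0.66, Itpr2 from -0.18 to 0.35 and Itpr3 from -0.05 to 0.40. That of Trpm7 ran from 0.12 to 0.87, Orai1 from -0.52 to -0.07, Orai2 from 0.02 to 0.18, Stim2 from 0.05 to 0.25, Kcnn4 from -0.59 to -0.17 and Trpm4 from -0.37 to -0.20. The turns of the Itpr genes came without control 1. Itpr2 was -0.04 after removal of the length and GC trend and -0.02 with the replicate block added. With control 2 as the only control, where the spread comes from the rPTH libraries alone and control 2 is assumed to vary like them, Orai2 was -0.04, Itpr1 -0.01, Itpr2 -0.20 and Itpr3 -0.12, and the share of Itpr3 differed by 0.777 points. Leaving out 1 library the share of Itpr3 differed by -2.31 to 1.82 points and that of Itpr2 by -2.39 to 0.164. The cause of these turns was not tested.

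The deviations of same-numbered libraries had correlations of -0.13, -0.32 and 0.14, against -0.27 to 0.35 for libraries of unlike number. The labels state no pairing, and with 3 libraries per group this check cannot tell whether the numbers pair the samples. With the replicate block 525 genes had an unadjusted p under 0.05, against 1314 without it, and 0 of the 10 genes in both. That count was 2377 without the filter, 622 among protein-coding genes, 807 after removal of the length and GC trend and 435 with that and the block. Leaving out 1 library it ran from 272 to 2165. Of the 10 genes, 1 was among them without control 1 (Trpm4), where 12.4% of all tested genes were. Without control 3 it was also 1 of the 10 (Kcnn4), against 9.5% of all tested genes. After removal of the length and GC trend it was again 1 of the 10 (Trpm4), against 4.99%. Orai1 had the fewest counts of the 10, 231 to 399 per library.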
